A study of Mus musculus with 24 samples.

Results

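Kallikreins, clade B serpins and the inhibitor gene Spink5 were read together in the skin of mice with sclerodermatous graft-versus-host disease. The set was every gene whose symbol is Serpinb or Klk followed by a number, plus Spink5. It held 39 of the 18193 genes measured: 20 kallikreins, 18 clade B serpins and Spink5. Kallikreins are secreted serine proteases, and those of the epidermis cut the corneodesmosomes that hold the outermost cells of the skin together. LEKTI, the product of Spink5, holds several of them in check until the cells reach the surface. Clade B serpins are mostly intracellular inhibitors, which trap a protease by letting it cut their reactive loop. Their known targets include granzyme B, neutrophil elastase, cathepsins and trypsin-like enzymes.

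All recipients were female RAG2-/- mice, which lack T and B cells unless grafted. In the syngeneic groups these mice received Balb/c splenocytes, and the titles name no antibody. Mice with the disease (GVH-SSc) received B10.D2 splenocytes together with an isotype antibody as control or with anti-IFNAR1, which binds one of the receptor chains for type I interferons. Shaved dorsal scapular skin was taken at day 14 or day 28 after grafting, with 4 arrays in each of the 6 groups. The ages of the mice are not given in the labels, nor is a batch, and nothing in them ties each array to its own animal. P-values therefore measure only the spread between arrays. Values are log2(intensity + 16), on which a value of 4 is no signal and a step of 1 is a 2-fold change of a bright gene. A change is a log2 fold change ± SE (n = 4 arrays in each group), and a gene with an adjusted p under 0.05 (limma, Benjamini-Hochberg over all genes) is called.

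Array medians ran from 14.8 to 17.7 intensity units. Basal epidermis markers (Krt5, Krt14 and 6 others) averaged 11.89 to 12.94 on every array, so keratinocytes, the main source of most of these genes, were represented throughout. One isotype array of day 14, replicate 4, stood apart from its group. Its mean over 8 markers of wounded epidermis (Krt6a, Krt6b, Krt16, Krt17, Sprr1b, Sprr2d, S100a8 and S100a9) was 8.57, against 13.09 to 14.40 on the other 3. Isotype replicate 3 of day 14 carried liver transcripts, with Alb at 15.27 and at most 10.28 on any other array. That next highest array was syngeneic replicate 2 of day 28, beside a median of 5.48 over all arrays. It was also second highest for Apoa1 and Ttr. For some genes whose call of day 14 moved without one of these isotype arrays, the moved value is given. Gene by gene levels are those of whole skin, where fewer cells of a type and less RNA per cell cannot be told apart.

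Under isotype antibody at day 28, 13 of the 39 genes were higher than in syngeneic skin and 1 was lower. Over all genes, 6.66% were called higher and 9.69% lower. The 13 were 8 kallikreins (Klk5, Klk6, Klk7, Klk8, Klk9, Klk11, Klk12 and Klk13) and 5 serpins (Serpinb1a, Serpinb3a, Serpinb6c, Serpinb11 and Serpinb12), with changes from 0.86 (Klk5) to 6.90 (Klk13). The gene that fell was Serpinb6e. In 15 genes all 4 isotype arrays lay above all 4 syngeneic arrays, and in 1 below them. Over all genes, 8.09% had such groups with isotype above and 12.2% with isotype below. The median change of the 39 genes was 0.12, beside -0.00 for all genes, and 15 of the 39 did not pass 50 intensity units on at least 4 arrays. A fit of only the 8 arrays compared called 13 higher and 1 lower, where 5.41% and 6.96% of all genes were called. A matching count does not mean that each gene kept its call.

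At day 14, 11 of the 39 genes were higher in isotype than in syngeneic skin and 0 were lower, where 5.29% of all genes were called higher and 8.3% lower. All isotype arrays lay above all syngeneic arrays in 7 of the 39 and below them in 1, where 5.11% and 8.14% of all genes had such groups. The 11 genes called higher were Klk6, Klk7, Klk8, Klk9, Klk13, Serpinb1a, Serpinb3a, Serpinb6c, Serpinb9, Serpinb11 and Serpinb12. At both days 10 genes were called. Klk5, Klk11 and Klk12 were called at day 28 and not at day 14, and Serpinb9 at day 14 and not at day 28. The test of the difference between the days called 0 of the 39 genes (limma interaction; 6 members had an unadjusted p under 0.05), where 0.044% of all genes were called. The number called at day 14 moved with single arrays. It was 13 without isotype replicate 4 (12 higher, 1 lower), where 6.39% of all genes were called higher and 11% lower. Without isotype replicate 3 it was 7, all higher, where 3.46% of all genes were called higher and 5.45% lower. It was 3 without isotype replicate 1 (Klk6, Klk7 and Serpinb3a, all higher), where 3.13% of all genes were called higher and 4.29% lower. It was 5 without isotype replicate 2 or syngeneic replicate 4, and 7 without syngeneic replicate 3. For these fits the share of all genes called was not computed, so the counts have no background to be read against. In a fit of only the 8 arrays compared the number was 0, where 0.456% of all genes were called. In that fit 14 members had an unadjusted p under 0.05.

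**Figure D1:**
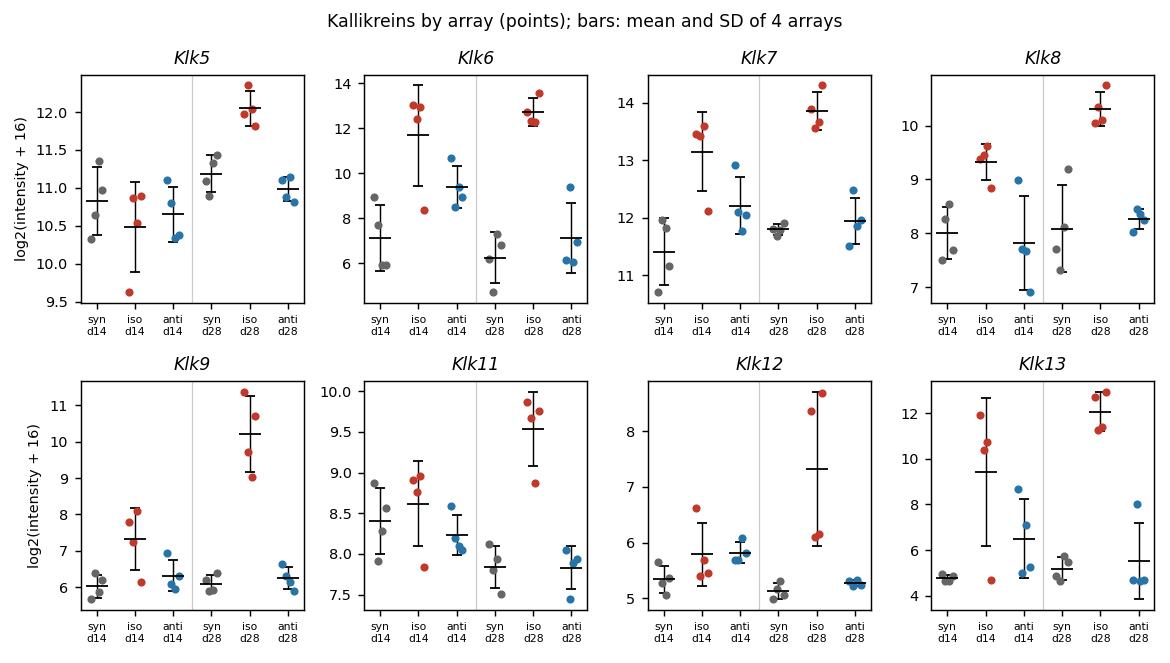
Levels of 8 kallikreins on each array, as log2(intensity + 16), with a panel per gene and its own vertical axis; points are arrays, bars the mean and SD of 4 arrays, and colours mark syngeneic (grey), isotype (red) and anti-IFNAR1 (blue) skin at day 14 (d14) and day 28 (d28). At day 28 all isotype points lie above all syngeneic and anti-IFNAR1 points of that day in all 8 panels, and 1 isotype array of day 14 lies low for Klk6 (8.36) and Klk13 (4.67).

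Klk13 and Klk6 had the largest changes of the set. Klk13, a trypsin-like kallikrein of stratified epithelia, read 4.87, 4.67, 5.73 and 5.46 on the syngeneic arrays of day 28 and 12.72, 11.25, 11.40 and 12.93 on the isotype arrays. In syngeneic skin it was thus near the background, and under isotype antibody among bright genes, by a change of 6.90 ± 1.18 (adjusted p = 0.000535). At day 14 the syngeneic arrays read 4.66 to 4.95 and the isotype arrays 11.93, 10.38, 10.73 and 4.67. Replicate 4, the array low in wounded epidermis markers, was at the syngeneic level. The change was 4.64 ± 1.18 (adjusted p = 0.0146), and 6.23 ± 0.85 without that array (adjusted p = 0.000212). Without isotype replicate 1, the highest of the group, the gene was not called (adjusted p = 0.061).

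Klk6, a trypsin-like enzyme known from brain and from skin, followed the same array pattern. At day 28 it read 6.18, 4.71, 7.32 and 6.80 in syngeneic and 12.71, 12.32, 12.28 and 13.58 in isotype skin, a change of 6.47 ± 0.98 (adjusted p = 0.000211). At day 14 the syngeneic arrays spread widely (8.94, 7.69, 5.95 and 5.94), and the isotype arrays read 13.03, 12.42, 12.96 and 8.36. The groups overlapped only through isotype replicate 4. The change at day 14 was 4.56 ± 0.98 (adjusted p = 0.00611), and the gene was called with each array left out in turn (adjusted p of 0.00036 to 0.0264).

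Klk7 and Klk5 are the kallikreins best known for shedding. Klk7 is a chymotrypsin-like enzyme that cuts corneodesmosin, and Klk5 is a trypsin-like enzyme that activates it. Klk7 was bright in syngeneic skin, at 11.81, 11.69, 11.78 and 11.91 on day 28, and brighter under isotype antibody, at 13.88, 13.56, 13.66 and 14.31. The groups did not overlap at that day or at day 14, and the changes were 2.05 ± 0.33 (adjusted p = 0.000313) and 1.74 ± 0.33 (adjusted p = 0.00278). Klk5 was also bright in syngeneic skin but moved less. At day 28 its isotype arrays read 11.97, 12.36, 12.04 and 11.82 against 11.09, 10.90, 11.32 and 11.44 in syngeneic skin, a change of 0.86 ± 0.26 (adjusted p = 0.0259). Leaving out syngeneic replicate 1 or 2, or isotype replicate 2, ended that call (adjusted p up to 0.0796). At day 14 its groups overlapped, with a difference of -0.34 ± 0.26 (adjusted p = 0.428).

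Klk8 (neuropsin), a trypsin-like kallikrein of the upper epidermis, rose at both days. Its isotype arrays read 10.04, 10.34, 10.10 and 10.75 at day 28 against 7.70, 7.32, 8.11 and 9.19 in syngeneic skin, a change of 2.23 ± 0.39 (adjusted p = 0.000652). At day 14 the change was 1.32 ± 0.39 (adjusted p = 0.031), with no overlap. That call was lost with 5 of the 24 arrays left out one at a time, isotype replicate 3 among them (adjusted p up to 0.0921). Klk9 was called higher at both days. Its isotype arrays read 7.80, 7.26, 8.11 and 6.15 at day 14. Only the array at 6.15 lay within the syngeneic range of 5.67 to 6.38, and the others lay above it. At day 28 the isotype arrays read 11.37, 9.72, 9.04 and 10.71, all far above the syngeneic range of 5.89 to 6.38. The change at day 28 was 4.11 ± 0.42 (adjusted p = 8.59e-06). The change at day 14, 1.30 ± 0.42 (adjusted p = 0.0482), lay at the threshold and was lost with 19 of the 24 arrays left out one at a time (adjusted p up to 0.152). The difference between the days, 2.81 ± 0.60, was not called (adjusted p = 0.0805).

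Klk11 and Klk12 showed their change at day 28. Klk11, a trypsin-like kallikrein, read 9.86, 9.67, 8.87 and 9.76 in isotype and 8.12, 7.80, 7.94 and 7.50 in syngeneic skin, a change of 1.70 ± 0.26 (adjusted p = 0.000222). Klk12 was dim in syngeneic skin, at 4.99 to 5.32, and read 8.36, 6.09, 6.15 and 8.68 in isotype skin. The isotype arrays thus fell into a higher and a lower pair, both above every syngeneic array, and the change was 2.19 ± 0.44 (adjusted p = 0.00177). Klk10 lies outside the rule for printing values and was chosen after its values were seen. Its difference of 1.43 ± 0.58 at day 28 was not called (adjusted p = 0.109). Its isotype arrays of that day read 10.10, 8.92, 9.24 and 11.50 and its syngeneic arrays 7.45 to 9.24. At day 14 its difference of 1.59 was not called, and without isotype replicate 4 it was (1.88, adjusted p = 0.0443).

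The other kallikreins were dim. Klk4, a kallikrein of tooth enamel, and the 8 measured Klk1b genes and Klk1b7-ps, the mouse submandibular gland kallikreins, lay near background, within the 4.33 to 5.24 that also held 4 dim serpins, on all 24 arrays. Klk1, tissue kallikrein, which releases kinins, lay between 5.61 and 7.44 on the probe set used and was not called in any comparison. Its other probe sets averaged 4.59 to 4.70 over all arrays, near background. In RefSeq gene order on chromosome 7, Klk13, Klk12, Klk11, Klk10, Klk9, Klk8, Klk7, Klk6 and Klk5 follow one another, and 8 of these 9 neighbours were called higher at day 28. None of the 11 measured genes beyond Klk5 in that order, from Klk4 to Klk1, was called.

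**Figure D2:**
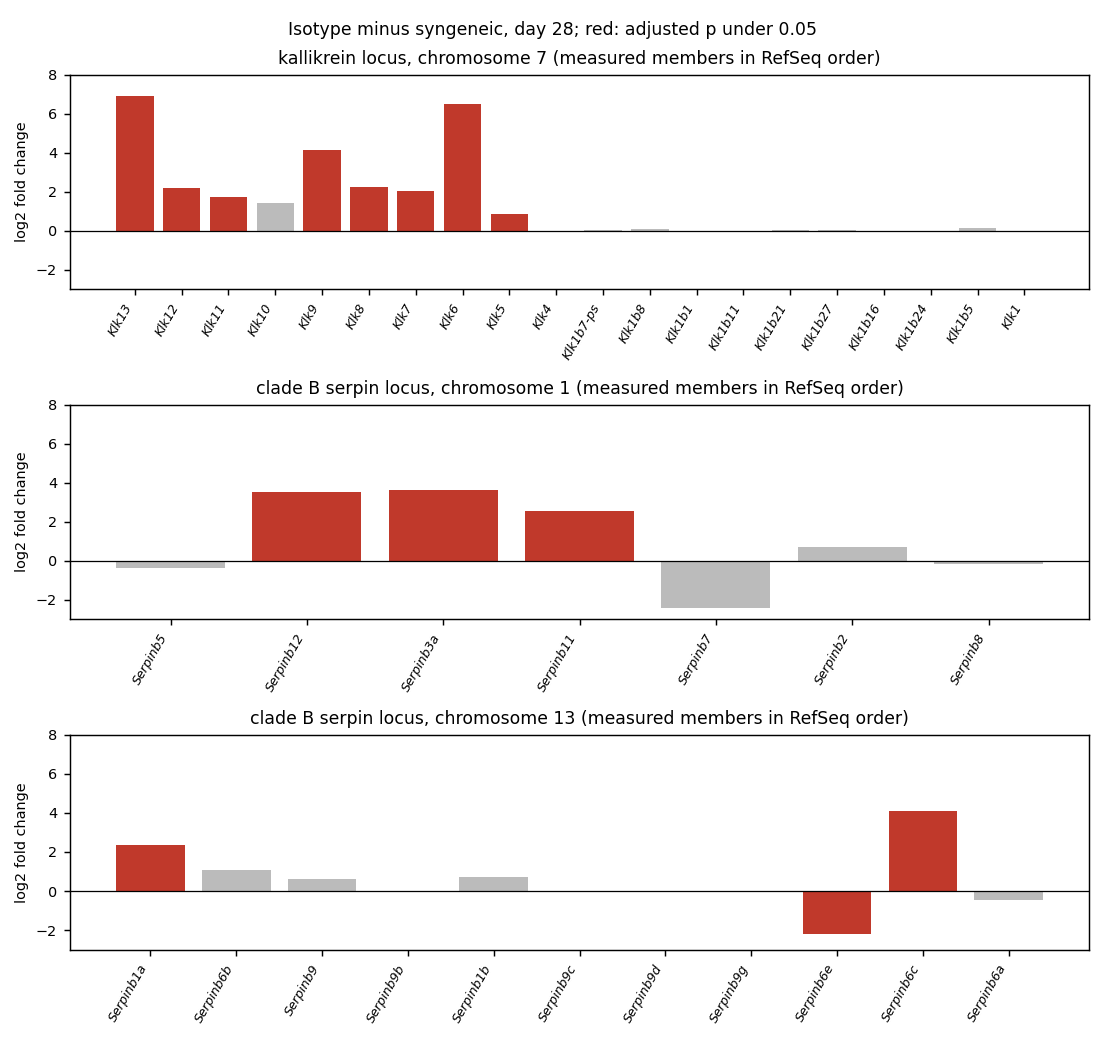
Log2 fold change of isotype against syngeneic skin at day 28 (vertical axis) for the measured members in RefSeq order along chromosomes 7, 1 and 13 (horizontal axis, not to scale); red bars have an adjusted p under 0.05. On chromosome 7 the red bars are the run from Klk13 (6.90) to Klk5 (0.86), broken only by Klk10, while on chromosomes 1 and 13 they stand among genes that were not called.

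Spink5, whose product restrains Klk5, Klk7 and other kallikreins, was not called in any comparison. It read 12.24, 11.65, 12.07 and 11.12 in syngeneic and 12.01, 12.03, 11.72 and 11.74 in isotype skin at day 14. At day 28 it read 11.79, 11.32, 11.85 and 11.74 in syngeneic and 11.11, 12.01, 12.32 and 12.53 in isotype skin. The groups overlapped at both days. The difference at day 28 was 0.32 ± 0.32 (adjusted p = 0.673), with a 95% interval from -0.36 to 0.998. At day 14 it was 0.11 ± 0.32 (adjusted p = 0.878), with an interval from -0.57 to 0.79. The differences between Spink5 and the kallikreins were not tested, and each gene comes from its own probe set.

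Among the serpins, 5 of 18 rose at day 28 and 6 at day 14. Serpinb12, an inhibitor of trypsin-like proteases, had the lowest adjusted p of the 39 genes at day 28. It read 8.07, 7.54, 8.23 and 7.82 in syngeneic and 11.14, 12.38, 11.71 and 10.49 in isotype skin, a change of 3.52 ± 0.35 (adjusted p = 8.38e-06). At day 14 the isotype arrays lay close together (9.09, 8.97, 8.97 and 8.70), above the syngeneic range of 7.40 to 8.29. That change was 1.10 ± 0.35 (adjusted p = 0.0463) and was lost with 17 of the 24 arrays left out one at a time (adjusted p up to 0.141). Within isotype skin Serpinb12 rose by 2.50 ± 0.35 from day 14 to day 28 (adjusted p = 0.00146).

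Serpinb3a and Serpinb6c were near background without the disease. Serpinb3a, a mouse relative of the squamous cell carcinoma antigens, read 5.48 to 5.81 on all 8 syngeneic arrays. Isotype arrays read 7.94, 9.90, 8.38 and 5.79 at day 14 and 8.64, 9.23, 9.62 and 9.69 at day 28. The changes were 2.33 ± 0.51 (adjusted p = 0.00692) and 3.65 ± 0.51 (adjusted p = 0.000116), and isotype replicate 4 of day 14 was again at the syngeneic level. Serpinb6c, a rodent relative of the cathepsin G inhibitor Serpinb6a, read 4.84 to 5.77 on the syngeneic arrays. Its isotype arrays read 8.91, 7.37, 7.69 and 5.18 at day 14 and 9.81, 8.51, 8.02 and 9.73 at day 28. The changes were 2.04 ± 0.52 (adjusted p = 0.0157) and 4.10 ± 0.52 (adjusted p = 5.07e-05). Without isotype replicate 1 the first was not called (adjusted p = 0.0618). Both genes have close copies in the genome and were read by probe sets of the _x_at or _s_at kind, which can take up signal from such copies, so which copy was measured is uncertain.

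Serpinb11 and Serpinb1a rose less steeply. Serpinb11, from the same cluster on chromosome 1 as Serpinb12, read 10.94, 9.97, 10.11 and 11.02 in isotype and 7.23, 7.44, 8.96 and 8.13 in syngeneic skin at day 28, a change of 2.57 ± 0.51 (adjusted p = 0.0017). At day 14 the change of 1.56 ± 0.51 (adjusted p = 0.0487) lay at the threshold and was lost with 21 of the 24 arrays left out one at a time (adjusted p up to 0.185). Serpinb1a, an inhibitor of the neutrophil proteases elastase, proteinase 3 and cathepsin G, read 10.15, 10.36, 11.14 and 11.65 in isotype and 8.67, 8.58, 8.08 and 8.49 in syngeneic skin at day 28. The change was 2.37 ± 0.47 (adjusted p = 0.00181), and at day 14 it was 1.59 ± 0.47 (adjusted p = 0.0316), with overlapping groups. The call at day 14 was lost with 5 of the 24 arrays left out one at a time (adjusted p up to 0.125). A second Serpinb1a probe set had a difference of 1.40 at day 28 and 1.24 at day 14.

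Serpinb9, the inhibitor of granzyme B, was high early. Its isotype arrays read 10.12, 9.80, 9.23 and 9.83 at day 14 and 8.01, 7.93, 8.06 and 7.90 at day 28. Within isotype skin it fell by 1.77 on the log2 scale between the days (SE 0.44, adjusted p = 0.0399). This call was lost with 13 of the 24 arrays left out one at a time, isotype replicates 1 and 4 of day 14 among them (adjusted p up to 0.104), and with the replicate number as a block (adjusted p = 0.0611). Against syngeneic skin of day 14, whose replicate 1 was high (10.07, 8.47, 7.18 and 7.49), the change was 1.44 ± 0.44 (adjusted p = 0.0343). It was lost with 5 arrays left out one at a time, isotype replicate 4 among them (adjusted p up to 0.125). At day 28 the isotype arrays all lay above the syngeneic range of 7.12 to 7.57, by 0.64 ± 0.44, which was not called (adjusted p = 0.408). Gzmb, its target protease, was called higher at both days, by 4.45 ± 0.67 and 4.22 ± 0.67.

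Serpinb6e, another rodent relative of Serpinb6a, was the single member that fell. At day 28 it read 7.88, 8.09, 8.49 and 8.23 in syngeneic and 6.07, 5.60, 5.73 and 6.50 in isotype skin, a change of -2.20 ± 0.49 (adjusted p = 0.00439). At day 14 the difference of -1.15 ± 0.49 was not called (adjusted p = 0.135). It was -1.61 ± 0.47 without isotype replicate 4, whose 8.79 was the highest of its group, and was then called (adjusted p = 0.0232). Serpinb6c and Serpinb6e lie next to each other on chromosome 13 and changed in opposite directions at day 28. The Serpinb6e probe set is also of the _x_at kind.

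Serpinb2, Serpinb5, Serpinb6a, Serpinb7 and Serpinb8 were not called in any of the comparisons between groups. Serpinb2 (PAI-2), an inhibitor of urokinase, read 12.75, 12.08, 11.47 and 11.06 in isotype and 10.03, 10.46, 10.63 and 7.61 in syngeneic skin at day 14. The groups did not overlap, and the difference was 2.16 ± 0.84 (adjusted p = 0.0983). At day 28 one isotype array was at 8.36 and the other 3 at 11.26 to 12.11, with a difference of 0.70 ± 0.84 (adjusted p = 0.768). Serpinb7, whose human counterpart is mutated in a palmoplantar keratosis, scattered widely, from 5.20 to 11.98 over all arrays. Its isotype arrays of day 28 read 5.20, 9.13, 10.09 and 7.67 and its syngeneic arrays 10.17, 9.53, 10.12 and 11.98, a difference of -2.43 ± 1.15 (adjusted p = 0.18).

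Serpinb5 (maspin), a serpin that does not inhibit proteases, was bright and nearly level, from 12.18 to 13.26 on all arrays. Its differences of -0.39 ± 0.16 and -0.35 ± 0.16 at days 14 and 28 were not called (adjusted p = 0.117 and 0.17). Its 4 probe sets differed in sign at both days, so no direction is given for it. Serpinb6a, an inhibitor of cathepsin G, lay between 12.30 and 13.81, with differences of -0.43 ± 0.26 and -0.48 ± 0.26. Serpinb8, an inhibitor of furin, had differences of -0.39 ± 0.27 and -0.16 ± 0.27, and its 2 probe sets differed in sign. The dim serpins Serpinb9b, Serpinb9c, Serpinb9d and Serpinb9g lay, with the dim kallikreins, between 4.33 and 5.24. Serpinb1b and Serpinb6b fall outside the rule for printing values and were chosen after their values were seen. Serpinb1b, a copy of Serpinb1a, read 9.15, 6.03, 5.11 and 4.89 in isotype and 4.65, 4.38, 4.38 and 4.53 in syngeneic skin at day 14, a difference of 1.81 ± 0.62 (adjusted p = 0.0597). The groups did not overlap, and without isotype replicate 3 or 4 the gene was called (2.21 and 2.28, adjusted p = 0.0407 and 0.0175). Serpinb6b had differences of 1.38 ± 0.62 and 1.07 ± 0.62 that were not called.

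**Figure D3:**
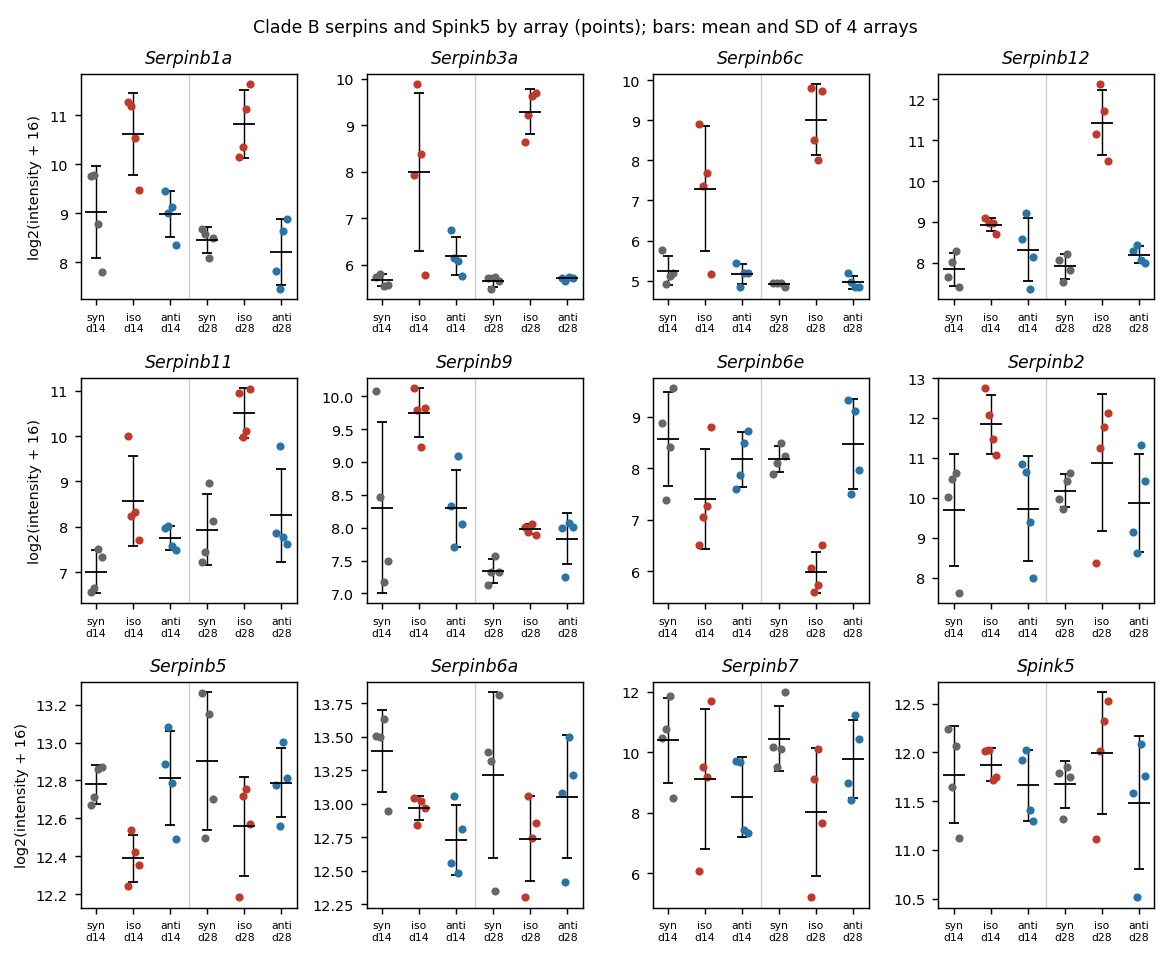
Levels of 11 clade B serpins and Spink5 on each array, as log2(intensity + 16), with a panel per gene and its own vertical axis; points are arrays, bars the mean and SD of 4 arrays, and colours mark syngeneic (grey), isotype (red) and anti-IFNAR1 (blue) skin at day 14 (d14) and day 28 (d28). Serpinb12 of isotype skin stands at 8.70 to 9.09 at day 14 and 10.49 to 12.38 at day 28, Serpinb6e falls to 5.60 to 6.50 at day 28, and Spink5 overlaps in all groups of a day.

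The 250 bases upstream of each RefSeq start (build GRCm38.p6) were searched for the core letters of 3 regulatory motifs on both strands. The table held 36 of the 39 genes. TGANTCA, a loose form of the AP-1 site that allows any middle base, was present for 6 of the 36 genes (16.7%). It was present for 7.82% of all 27025 genes in the table. All 6 were serpins of chromosome 1 (Serpinb2, Serpinb5, Serpinb7, Serpinb8, Serpinb11 and Serpinb12), which was 6 of the 7 measured there (85.7%). The usual AP-1 site has C or G in the middle, and only Serpinb7 and Serpinb8 had such a match (TGAGTCA). The others, with both called genes, had TGAATCA or TGATTCA. Of these 6 only Serpinb11 and Serpinb12 were called higher, and the seventh, Serpinb3a, was called higher with no match. These letters were found for 0 of 19 kallikreins and 0 of 10 serpins of chromosome 13. A pair of GAAA runs set 2 bases apart, the core of the interferon-stimulated response element, was present for Klk11, Serpinb6a and Serpinb9 (8.33%, against 3.46% of all genes). TTCNNNGAA, the gamma-activated site, was present for Klk10, Serpinb2, Serpinb6a and Serpinb9c (11.1%, against 8.13% of all genes). A match is a run of letters, not a shown binding site. The following upstream sequences, 5′ to 3′ with the match in capitals, are given for serpins of chromosome 1 that were called (Serpinb12 and Serpinb11) and not called (Serpinb7 and Serpinb8), and for Serpinb9, whose match to the interferon element is on the minus strand.
Serpinb12, chr1:106934199-106934448, plus strand: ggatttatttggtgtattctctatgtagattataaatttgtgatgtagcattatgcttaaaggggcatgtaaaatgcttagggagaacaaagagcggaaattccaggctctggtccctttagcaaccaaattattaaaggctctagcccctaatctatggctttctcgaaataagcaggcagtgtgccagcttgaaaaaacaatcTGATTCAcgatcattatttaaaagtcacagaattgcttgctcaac
Serpinb11, chr1:107362064-107362313, plus strand: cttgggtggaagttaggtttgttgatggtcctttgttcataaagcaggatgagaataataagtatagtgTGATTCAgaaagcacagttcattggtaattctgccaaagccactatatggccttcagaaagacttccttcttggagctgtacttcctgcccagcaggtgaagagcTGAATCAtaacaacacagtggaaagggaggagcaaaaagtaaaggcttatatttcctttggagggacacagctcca
Serpinb7, chr1:107422439-107422688, plus strand: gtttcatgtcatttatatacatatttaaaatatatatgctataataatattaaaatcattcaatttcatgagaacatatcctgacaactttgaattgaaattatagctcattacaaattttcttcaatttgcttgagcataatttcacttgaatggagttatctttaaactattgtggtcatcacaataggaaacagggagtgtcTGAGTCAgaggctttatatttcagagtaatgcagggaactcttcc
Serpinb8, chr1:107589756-107590005, plus strand: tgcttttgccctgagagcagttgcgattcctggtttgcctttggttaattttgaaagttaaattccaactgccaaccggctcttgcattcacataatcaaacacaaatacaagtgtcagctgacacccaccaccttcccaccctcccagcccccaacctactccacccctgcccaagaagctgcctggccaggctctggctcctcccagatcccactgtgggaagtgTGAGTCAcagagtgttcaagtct
Serpinb9, chr13:33004291-33004540, plus strand: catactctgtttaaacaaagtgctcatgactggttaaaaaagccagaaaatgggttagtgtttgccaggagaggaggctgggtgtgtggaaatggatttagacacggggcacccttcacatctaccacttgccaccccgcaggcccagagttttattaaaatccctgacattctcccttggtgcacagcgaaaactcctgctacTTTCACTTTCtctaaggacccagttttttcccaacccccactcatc

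The match began 45 bases before the start in Serpinb12 and in Serpinb7, 23 bases before it in Serpinb8 and 46 bases before it in Serpinb9. Serpinb12 has a second RefSeq start further downstream whose window held none of the 3 motifs. Serpinb12 (TGATTCA) and Serpinb7 (TGAGTCA) thus matched TGANTCA at the same distance from the start, but with different middle bases. At day 28 their values were 3.52 ± 0.35 (called) and -2.43 ± 1.15 (not called). What either match does was not tested.

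At day 28 the antibody against IFNAR1 was compared with the isotype antibody. Of the 39 genes 13 were lower and 1 was higher in anti-IFNAR1 skin, where 4.89% of all genes were called lower and 8.42% higher. These were the 13 genes that had been higher, and the 1 that had been lower, in isotype than in syngeneic skin. Both comparisons use the same 4 isotype arrays, so these calls are not independent of each other. In 14 genes all anti-IFNAR1 arrays lay below all isotype arrays, and in 1 above them, where 6.85% and 10.3% of all genes had such groups. Each of the 14 calls held with any 1 of the 24 arrays left out. In a fit of only those 8 arrays 11 were lower and 1 higher (Klk12 and Serpinb11 were no longer called). In that fit 3.88% of all genes were called lower and 4.58% higher.

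Anti-IFNAR1 arrays of day 28 read 4.69, 8.04, 4.66 and 4.70 for Klk13, a change of -6.55 ± 1.18 from isotype skin (adjusted p = 0.00129). For Klk6 they read 6.16, 9.38, 6.05 and 6.97, a change of -5.58 ± 0.98 (adjusted p = 0.00115). Replicate 2 was the highest in both genes, yet below every isotype array. Klk9 read 6.64, 6.30, 6.16 and 5.91, a change of -3.96 ± 0.42 (adjusted p = 4.17e-05), and Serpinb12 read 8.29, 8.44, 8.06 and 7.99, a change of -3.24 ± 0.35 (adjusted p = 4.17e-05). These 2 genes had the lowest adjusted p of the set. Klk7 read 11.50, 12.48, 11.86 and 11.95, a change of -1.90 ± 0.33 (adjusted p = 0.00101), and Klk5 read 11.10, 10.89, 11.14 and 10.81, a change of -1.06 ± 0.26 (adjusted p = 0.00892). Both shedding proteases were therefore lower on all 4 anti-IFNAR1 arrays than on any isotype array.

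Klk8, Klk11 and Klk12 fell by 2.04, 1.71 and 2.04 on the log2 scale, with adjusted p of 0.00201, 0.000381 and 0.00406. Among the serpins, Serpinb3a read 5.67 to 5.74 on the anti-IFNAR1 arrays, a change of -3.58 ± 0.51 (adjusted p = 0.000275), and Serpinb6c read 4.83 to 5.18, a change of -4.06 ± 0.52 (adjusted p = 0.000109). Both read at the dim level seen on syngeneic arrays. Serpinb1a read 7.82, 7.46, 8.63 and 8.89, a change of -2.62 ± 0.47 (adjusted p = 0.00132), and Serpinb11 read 7.86, 9.79, 7.77 and 7.62, a change of -2.25 ± 0.51 (adjusted p = 0.00608). Serpinb6e, the gene that had fallen, read 9.32, 7.50, 9.10 and 7.97, a change of 2.50 ± 0.49 (adjusted p = 0.00244). Spink5 read 11.58, 10.52, 12.08 and 11.76, overlapping isotype skin, with a difference of -0.51 ± 0.32 (adjusted p = 0.384). Serpinb9 was level between the antibodies at day 28, with anti-IFNAR1 arrays at 7.25 to 8.08 and a difference of -0.14 ± 0.44.

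Anti-IFNAR1 and syngeneic skin of day 28 were then set side by side. None of the 39 genes was called (limma; 0 members had an unadjusted p under 0.05), where 0.033% of all genes were called. Groups overlapped in all 39 genes, and did not in 1.71% of all genes. The differences ran from -0.68 (Serpinb7) to 0.89 (Klk6). For Klk13 the difference was 0.34 with an interval from -2.13 to 2.81, for Klk6 0.89 with -1.17 to 2.95, for Klk7 0.15 with -0.54 to 0.84, for Klk5 -0.20 with -0.74 to 0.33, and for Serpinb12 0.28 with -0.46 to 1.03. For Klk13 and Klk6 these intervals leave room for sizeable differences, so a return to the syngeneic level is not shown.

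**Figure D4:**
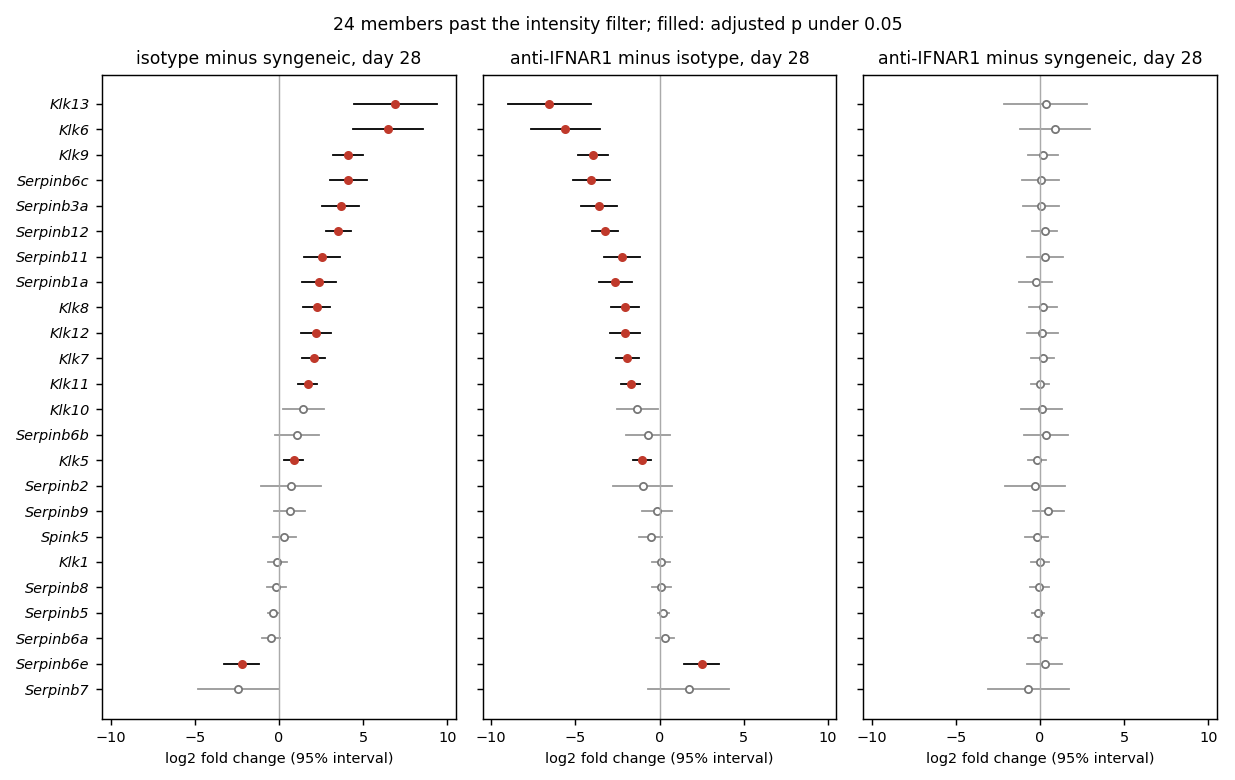
Log2 fold changes with 95% intervals (horizontal axes) of the 24 genes that passed 50 intensity units on at least 4 arrays, in 3 comparisons at day 28; filled points have an adjusted p under 0.05. The filled points of the first panel recur with the opposite sign in the second, which shares the isotype arrays, and none is filled in the third, where values lie between -0.68 and 0.89.

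At day 14 no member was called between anti-IFNAR1 and isotype skin, where 0.159% of all genes were called higher and 0.654% lower. Of the 39 genes, 14 had an unadjusted p under 0.05. The number called moved most with isotype replicate 4. Without it 7 members were called lower and 0 higher, where 2.13% and 1.31% of all genes were called. They were Klk6 (-3.41, adjusted p = 0.0337), Klk7 (-1.28, adjusted p = 0.0234), Klk8 (-1.66, adjusted p = 0.0371), Klk13 (-4.51, adjusted p = 0.00926), Serpinb1a (-2.01, adjusted p = 0.0253), Serpinb3a (-2.55, adjusted p = 0.00142) and Serpinb6c (-2.83, adjusted p = 0.00147). With all arrays the lowest adjusted p was 0.0617 (Serpinb6c). Without isotype replicate 3, the array highest in liver transcripts, 0 members were called, where 0.022% of all genes were called higher and 0.236% lower. Serpinb9 was called without syngeneic replicate 1 of day 14. Klk8 was called without anti-IFNAR1 replicate 1 of day 14 or without syngeneic replicate 4 of day 28. The share of all genes called was not computed for the fits that called Serpinb9 or Klk8 in this way.

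Anti-IFNAR1 arrays of day 14 read 10.70, 8.53, 9.41 and 8.96 for Klk6, and 8.69, 4.98, 7.09 and 5.26 for Klk13. Klk6 lay between the syngeneic and isotype means, and replicate 1 was highest in both genes. Serpinb1a, at 9.46, 9.01, 9.14 and 8.34, lay below all isotype arrays. So did Serpinb2, at 10.84, 10.65, 9.40 and 7.999, and Serpinb9, at 8.33, 7.71, 9.09 and 8.06. These 3 serpins were the members whose anti-IFNAR1 arrays all lay below isotype, and Serpinb8 was the 1 above, where 7.51% and 4.56% of all genes had such groups. Against syngeneic skin of day 14 no member was called (3 had an unadjusted p under 0.05; 1.12% of all genes were called). The ratio of the 3′ to the 5′ Gapdh control probe sets, which rises as RNA breaks down, had a log2 mean of 3.35 ± 1.35 on the anti-IFNAR1 arrays of day 14 and 1.34 ± 0.63 on the isotype arrays (SD, n = 4 each) (two-sided exact permutation p = 0.0571). The part of RNA quality in the day 14 values was not tested beyond a fit with this ratio as a covariate, in which the call count stayed at 0. The share of all genes called was not computed for that fit.

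Between the days, 3 members rose and 1 fell within isotype skin, where 1.15% of all genes were called higher and 1.05% lower. Klk9 rose by 2.88 ± 0.42 (adjusted p = 0.00205), Serpinb12 by 2.50 ± 0.35 (adjusted p = 0.00146) and Klk5 by 1.57 ± 0.26 (adjusted p = 0.0046), and Serpinb9 fell. The first 3 calls held with any 1 of the 24 arrays left out, with changes of 2.49 to 3.27 for Klk9 (2.49 without isotype replicate 4 of day 14), 2.18 to 2.81 for Serpinb12 and 1.28 to 1.70 for Klk5, and that of Serpinb9 did not. In a fit of only the arrays compared none of the 4 was called (adjusted p of 0.0656 to 0.168). All 4 isotype arrays of day 28 lay above all those of day 14 for Klk5, from 11.82 to 12.36 against 9.62 to 10.89. In syngeneic and in anti-IFNAR1 skin no member was called between the days (limma; 2 and 1 with an unadjusted p under 0.05), where 0.077% and 0.555% of all genes were called. The change of the antibody comparison between the days was not called for any member (11 with an unadjusted p under 0.05; 0.0715% of all genes called). The lowest adjusted p there was 0.0504 (Serpinb12, -2.62 ± 0.50), followed by Klk9 (-2.95 ± 0.60, adjusted p = 0.0556).

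**Figure D5:**
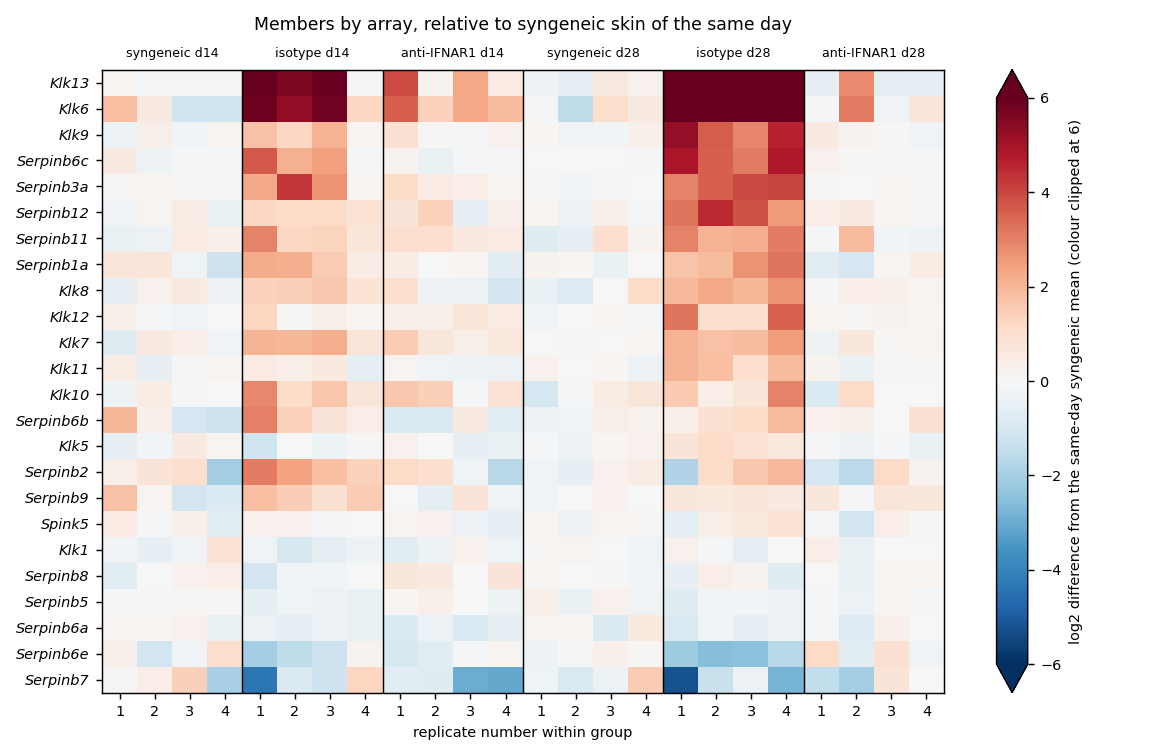
Each array's log2 level minus the mean of the 4 syngeneic arrays of the same day, for the 24 genes that passed 50 intensity units on at least 4 arrays (rows) and the 24 arrays by group and replicate (columns); colour is clipped at 6 in either direction. The 4 isotype columns of day 28 are dark red for Klk13 and Klk6, isotype replicate 4 of day 14 is pale, and anti-IFNAR1 replicate 2 of day 28 is redder than its group for Klk13, Klk6 and Serpinb11.

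Markers of epidermal state and of infiltrating cells moved with these genes. For isotype against syngeneic skin, 6.66% of all genes were called higher and 9.69% lower at day 28, and 5.29% and 8.3% at day 14. For anti-IFNAR1 against isotype skin at day 28 the shares were 8.42% higher and 4.89% lower. The wounded epidermis mean was 14.41 ± 0.63 under isotype antibody, 8.27 ± 0.78 in syngeneic mice and 8.89 ± 0.63 under anti-IFNAR1 (SD, n = 4, day 28) (two-sided exact permutation p = 0.0286 for isotype against either, the smallest that 4 against 4 arrays allow; 0.0744 after Benjamini-Hochberg over 52 such tests). All 8 markers were called higher in isotype than in syngeneic skin at day 28 and 7 of 8 at day 14. With this mean as a covariate, an alternative chosen after seeing the data, no member was called in either comparison at either day. Of all genes 0.0275% were called for isotype against syngeneic and 0.0055% for anti-IFNAR1 against isotype skin at day 28. At day 14 these shares were 0.11% and 0.165%. At that day the mean was 13.72 to 14.96 on isotype, 7.51 to 9.27 on syngeneic and 8.35 to 9.76 on anti-IFNAR1 arrays. The covariate thus nearly repeated the groups, so the loss of calls was largely set in advance and nothing is concluded from it. Basal epidermis markers averaged 12.53 ± 0.14 in isotype and 12.73 ± 0.20 in syngeneic skin at day 28 (SD, exact permutation p = 0.143), with 1 of 8 called higher and 2 lower. Suprabasal markers averaged 13.51 ± 0.38 against 12.87 ± 0.14 (SD, exact permutation p = 0.0286), with 2 of 8 called higher. In isotype against syngeneic skin at day 14, 10 of 10 T and NK cell markers, 7 of 9 macrophage and 2 of 9 neutrophil markers were called higher and none of them lower. In anti-IFNAR1 against isotype skin at day 28, 7 of 8 wounded epidermis markers, 8 of 10 T and NK cell, 7 of 9 neutrophil and 4 of 9 macrophage markers were called lower, and 6 of 6 adipocyte and 4 of 7 skeletal muscle markers were called higher.

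Neutrophil markers averaged 5.89 to 7.60 on isotype and 4.99 to 5.33 on syngeneic arrays at day 28, with 7 of 9 called higher. Among their defining genes Mpo and Elane were near background in all groups (means of at most 5.37 and 4.50). T and NK cell markers averaged 7.64 to 8.05 against 4.70 to 5.03, with 10 of 10 called higher, and macrophage markers 10.06 to 11.10 against 8.15 to 9.46, with 6 of 9 called higher. Hair follicle markers averaged 4.78 to 7.89 on isotype and 6.70 to 12.14 on syngeneic arrays (two-sided exact permutation p = 0.0857). Of these 17 markers 2 were called lower, near the 9.69% of all genes called lower. Sebaceous (1 of 3), sweat and salivary gland (2 of 8), skeletal muscle (4 of 7) and adipocyte (6 of 6) markers were called lower. Of 8 mast cell markers 1 was called higher, beside 6.66% of all genes. Serpinb1a and Serpinb9 are also expressed by leukocytes. The part of cell makeup in any of these results was not tested beyond the covariate fits, and the wounded epidermis fit cannot test it at day 28.

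Genes that act with kallikreins and serpins were read from 5 lists, beside shares of all genes called higher and lower of 6.66% and 9.69% (isotype against syngeneic skin, day 28), 5.29% and 8.3% (day 14), and 8.42% and 4.89% (anti-IFNAR1 against isotype skin, day 28). Of 15 substrates and partners of the cornified layer, 5 were called higher and 0 lower in isotype against syngeneic skin at day 28, and 0 and 1 at day 14, which is no more than the share of all genes. Ivl (involucrin), a precursor of the cornified envelope, rose by 1.38 ± 0.23 (adjusted p = 0.000426), Flg (filaggrin), which bundles keratin, by 2.08 ± 0.63 (adjusted p = 0.0281), and Jup (plakoglobin) by 0.94 ± 0.23 (adjusted p = 0.00766). Cdsn, the corneodesmosin that Klk5 and Klk7 cut, had a difference of 0.73 ± 0.28 that was not called (adjusted p = 0.0917). In anti-IFNAR1 against isotype skin at day 28, 0 were higher and 3 lower. The median change of the list was 0.44 at day 28, beside -0.00 for all genes.

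Of 19 other epidermal and pericellular proteases, 9 were called higher and 0 lower at day 28, and 3 and 0 at day 14. Prss27 (marapsin), a serine protease of stratified epithelia, rose by 3.70 ± 0.56 (adjusted p = 0.000211), Casp14, a caspase of cornification, by 3.04 ± 0.59 (adjusted p = 0.00151), and Asprv1, a protease that processes filaggrin, by 1.74 ± 0.28 (adjusted p = 0.000346). St14 (matriptase), which can activate kallikreins, had a difference of 0.16 ± 0.29 (adjusted p = 0.92). Under anti-IFNAR1 at day 28, 0 were higher and 7 lower than under isotype antibody. Of 19 proteases that clade B serpins inhibit, 8 were higher and 0 lower at day 28 and 5 and 0 at day 14. Besides Gzmb, Gzmk rose by 3.55 ± 0.31 (adjusted p = 1.82e-06) and Ctss (cathepsin S) by 2.98 ± 0.33 (adjusted p = 1.46e-05). Elane and Ctsg, the neutrophil targets of Serpinb1a, were called at day 28 but at levels near background, with isotype means of 4.50 and 5.31.

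Of 35 inhibitors of other families, 6 were higher and 2 lower at day 28, and 6 and 0 at day 14. The lower count of day 28 was below the share of all genes, and the median change of the list was 0.00072 at day 28. Stfa3 and Stfa2l1, stefins that inhibit cysteine cathepsins, rose by 7.76 (SE 1.003) and 6.50 (SE 0.76) at day 28 (adjusted p = 5.55e-05 and 2.36e-05). Slpi, a secreted inhibitor of neutrophil elastase, rose by 5.56 ± 0.66 (adjusted p = 2.51e-05). Under anti-IFNAR1 at day 28, 1 of the 35 was higher and 6 lower than under isotype antibody. Of 12 protease-activated receptors and targets, 4 were higher and 0 lower at day 28 and 2 and 0 at day 14. Il1b, a cytokine precursor, rose by 4.98 ± 0.73 (adjusted p = 0.000159) and Plaur, the urokinase receptor, by 2.52 ± 0.45 (adjusted p = 0.000732). All 4 were lower under anti-IFNAR1 at day 28.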

How the data were processed

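Skin RNA from 24 samples had been hybridised, as biotin-labelled cRNA, to Affymetrix mouse arrays, 1 per sample. The authors deposited 1 intensity per probe set and array, on a linear scale from 1.68 to 92640. The summary, background and normalization methods are not given in the sources used here. Of 45101 probe sets, 34945 had 1 gene symbol in the platform annotation, of which 34741 were matched by gene ID to RefSeq GRCm38.p6. Each of 18193 genes was read by its probe set of highest mean; 8 of the 39 members had more than 1. Values were log2(intensity + 16), which understates changes of dim genes, and no gene was filtered out. limma 3.58.1 in R 4.3.3 (lmFit, eBayes) was fitted to all 6 groups with Benjamini-Hochberg adjustment over all genes, and was tested on simulated data. The array number limits the precision.

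The members, lists and motifs were chosen with earlier results of these data known. Values were printed for members called in the isotype comparisons, largest changes first, and for a list of epidermal kallikreins and serpins. Of each partner list, up to 3 called genes with the largest change were eligible, plus partner proteases. Alternatives were quantile normalization, an offset of 1, a filter at 50 on 4 arrays, other probe set choices, a replicate block, covariates, fits of only the arrays compared, and each array left out. Klk14, Klk15, Serpinb13, Serpinb3b and F2rl1 were not analysed here.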

Additional observations from a re-analysis of the deposited data

Results flagged for a closer look

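Of 144 groups of 4 arrays examined (24 genes in 6 groups), 7 had an array far from the other 3, which is about the number that chance gives (5% of groups). The measure is the gap to the nearest array divided by the range of the group, set against Dixon's critical value for 4 values. In anti-IFNAR1 skin of day 28, replicate 2 stood apart for Klk13 (0.989, at 8.04 against 4.66 to 4.70), Serpinb11 (0.889, at 9.79 against 7.62 to 7.86) and Serpinb9 (0.912, at 7.25, with the highest of the others at 8.08). The same array had a hair follicle marker mean of 13.56, against 4.76 to 5.51 on the other 3; its part in these values was not tested. In isotype skin of day 14, replicate 4 stood apart for Klk6 (0.871, at 8.36 against 12.42 to 13.03) and Klk7 (0.885, at 12.12 against 13.43 to 13.59). Serpinb6b on anti-IFNAR1 replicate 3 of day 14 gave 0.866 (7.09 against 5.69 to 5.88). Serpinb6c on syngeneic replicate 4 of day 28 gave 0.839, over a range near background (4.84 against 4.93 to 4.95).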

How the results depend on the processing

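With single arrays left out, member counts ran from 3 to 13 for isotype against syngeneic skin at day 14, 13 to 15 at day 28, 0 to 7 and 14 to 14 for anti-IFNAR1 against isotype skin at days 14 and 28, 3 to 6 between days in isotype skin, and 0 to 2 for either change between days. With wounded epidermis as a covariate, which nearly repeated the groups at day 28, counts were 0 for isotype against syngeneic skin at both days. They were also 0 for anti-IFNAR1 against isotype skin at day 28. In fits of only the arrays compared, 0 were called for isotype against syngeneic skin at day 14 and 0 between days in isotype skin. Without dim genes, 2 were called for anti-IFNAR1 against isotype skin at day 14 (Klk8, Serpinb6c), 8 between days in isotype skin, 2 (Klk9, Serpinb12) for the isotype change between days and 2 for the anti-IFNAR1 change. With basal markers as a covariate, 7 were called between days in isotype skin. The anti-IFNAR1 change between days gave 1 call with quantile normalization, an offset of 1, no _x_at probe sets or the Gapdh ratio, and 2 with the hair or basal covariate. For these the cause was not tested. Apart from fits whose shares are given above, the share of all genes called was not computed here, nor for the replicate block below. These counts are therefore not read against a background. The fit without dim genes also tested fewer genes, 11096 of 18193, and 24 of the 39 members.

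Titles number the arrays, but arrays of the same number in different groups did not deviate together (correlations from -0.61 to 0.58, median -0.05, over 60 pairs; 2 of 24 arrays matched their own number best). With the replicate block, 8 members were called for isotype against syngeneic skin at day 14 (Klk8, Klk9 and Serpinb11 were not), 14 at day 28, 14 for anti-IFNAR1 against isotype skin at day 28, 3 between days in isotype skin (Serpinb9 was not), and 1 for the anti-IFNAR1 change between days.

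Members that changed sign were not called in the main comparison. For isotype against syngeneic skin at day 14, Serpinb5 was 0.0446 with the mean of probe sets and 0.37 without _x_at probe sets, Serpinb8 0.0270 with the mean of probe sets, and Spink5 -0.00118 with quantile normalization, -0.10 with the Gapdh ratio and -0.00719 with hair markers. At day 28, Serpinb5 was 0.56 without _x_at probe sets, Serpinb8 0.23 with the mean of probe sets and 0.0198 with basal markers, and Spink5 -0.0366 with hair markers. For anti-IFNAR1 against isotype skin at day 14, Serpinb5 was -0.0302 with the mean of probe sets and -0.53 without _x_at probe sets, and with the Gapdh ratio Klk12 was -0.35, Serpinb6a 0.0597, Serpinb7 1.06 and Spink5 0.0622. At day 28, Serpinb5 was -0.00408 and -0.53 in those 2 probe set choices, and Serpinb8 -0.33 with the mean of probe sets. With single arrays left out, Klk12 ran from -0.10 to 0.30, Klk5 from -0.11 to 0.31 and Serpinb7 from -1.60 to 0.28 for anti-IFNAR1 against isotype skin at day 14. Likewise Serpinb8 ran from -0.34 to 0.0299 for isotype against syngeneic and -0.0813 to 0.29 for anti-IFNAR1 against isotype skin at day 28, Serpinb9 from -0.22 to 0.0516 in the latter, and Spink5 from -0.11 to 0.26 for isotype against syngeneic skin at day 14.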

Other observations

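Klk1 was read by 4 probe sets. On isotype replicate 4 of day 28, 2 of them reached 8.88 and 8.83, where the next highest array was at 4.68 and 4.63, while the probe set used for the gene read 6.34 on that array. Serpinb1b was at 9.15 on isotype replicate 1 of day 14, and its next highest value was 6.49, on isotype replicate 4 of day 28. Among other genes at day 28, Gzmb had a difference of -1.18 between anti-IFNAR1 and isotype skin that was not called (limma, adjusted p = 0.307), and Plau, the target of Serpinb2, had a change of -1.57 that was (adjusted p = 0.0244).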
